A study of Homo sapiens with 2 samples.

Results

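Oxidative phosphorylation genes encode the respiratory chain and the ATP synthase of mitochondria, and they lie on 2 genomes. The genes described here were all those whose symbol starts with NDUFA, NDUFB, NDUFC, NDUFS, NDUFV, UQCR, COX4, COX5, COX6, COX7, COX8, ATP5, MT-ND, MT-CO, MT-CYB or MT-ATP. They numbered 110 of the 32738 genes in each matrix, 97 on nuclear chromosomes and 13 on the mitochondrial genome. Of the 97 nuclear genes, 78 encode structural subunits and 19 are assembly factors, pseudogenes, read-through or overlapping gene models and other relatives. Subunits with other symbols, such as CYC1 of complex III and USMG5 and C14orf2 of complex V, are outside this set and its sums. Genes at 10 CPM (UMI counts scaled by the library total) or more in either library are called measured. This held for 95 of the 110, namely 71 of 78 nuclear subunit genes, 11 of 19 other nuclear genes and 13 of 13 mitochondrial genes.

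Nalm-6, the cells studied, is a line of human precursor B lymphoblasts from acute leukemia. One library came from cells carrying a doxycycline-inducible (Tet-On) ETV6-RUNX1 fusion and 1 from cells carrying inducible luciferase as the control (LUC control), both treated with doxycycline at 500 ng/ml for 24 h. The fusion joins the first part of ETV6 to most of the transcription factor RUNX1, including its DNA-binding domain. Each construct has 1 library, which leaves no replicate check and allows no test of a difference between constructs, and every interval below is a 95% interval that covers counting error only, or, for a median, the spread over its genes.

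Electrons enter the chain at complex I (NADH dehydrogenase), pass through complex III (the cytochrome bc1 complex) and reach oxygen at complex IV (cytochrome c oxidase), and ATP synthase (complex V) uses the resulting proton gradient. The mitochondrial genome encodes catalytic, membrane-embedded subunits of these complexes and is transcribed as long polycistronic RNAs that are cut and polyadenylated. The nuclear genome encodes the remaining catalytic subunits, all accessory subunits and the assembly factors.

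UMIs (unique molecular identifiers) mark single captured transcripts, and CPM scales a gene's UMIs by all UMIs of the same cells. Cells were kept at 1000 or more genes and 10% or fewer mitochondrial UMIs. They numbered 2267 with ETV6-RUNX1 and 1870 in the control, with medians of 19219 and 22535.5 UMIs. Of the B-cell precursor markers, 8 of 8 found in the matrices were measured. Among markers of other cells, 0 of 5 T and NK, 0 of 5 erythroid and megakaryocyte and 0 of 5 epithelial and fibroblast genes were measured, and of 6 myeloid genes only CST3 was, at 11.5 and 10.1 CPM. The immature B-cell genes IGLL1 (log2 ratio -0.73) and VPREB1 (-0.56) were lower with ETV6-RUNX1. Counts on the gene ETV6 were at 10.1 and 6.95 CPM (0.55, 0.33 to 0.76) and those on RUNX1 at 33.8 and 34.0 CPM (-0.01, -0.11 to 0.10). The labels do not say which 3′ end the construct has, so these rows are a weak check of it. The 2 libraries shared 7 kept barcodes.

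Promoters of nuclear subunit genes are known for sites of the respiratory factor NRF1 and of ETS-family factors, and the sequences shown are 4 of the genes furthest from 0 in their complex, by library or by cell-cycle phase, 3 with a match and 1 without. RefSeq windows (GRCh38.p14, 250 bases before to 50 after a start) matched 63 of the 78 subunit genes, in 75 windows. The 120 bases before the start are printed, with the ETS motif CCGGAAG and the NRF1 motif (GCGC, any base, TGCGC), on either strand, in capitals. COX8A lies at chr11:63974500-63974619 (plus strand), NDUFA13 at chr19:19516105-19516224 (plus strand), UQCR11 at chr19:1605463-1605582 (minus strand) and NDUFB6 at chr9:32573160-32573279 (minus strand).
COX8A: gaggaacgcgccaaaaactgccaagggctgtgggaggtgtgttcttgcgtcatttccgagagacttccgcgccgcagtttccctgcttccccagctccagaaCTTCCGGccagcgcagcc
NDUFA13: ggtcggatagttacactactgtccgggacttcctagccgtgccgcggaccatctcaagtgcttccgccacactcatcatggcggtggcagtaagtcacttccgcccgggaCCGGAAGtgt
UQCR11: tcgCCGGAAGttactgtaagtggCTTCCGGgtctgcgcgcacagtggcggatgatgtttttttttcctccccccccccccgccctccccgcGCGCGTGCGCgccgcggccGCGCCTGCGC
NDUFB6: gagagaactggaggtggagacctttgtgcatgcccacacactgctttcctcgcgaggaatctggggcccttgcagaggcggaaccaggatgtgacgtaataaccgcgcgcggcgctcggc

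COX8A, NDUFA13 and UQCR11 were all higher with ETV6-RUNX1. NDUFB6 was lower, and neither motif was in the 250 bases before its start, nor in those of the 4 windows of NDUFC1, also lower. NDUFC2 was not matched. The genes shown are examples picked with their ratios known, and a link between motif and ratio was not tested.

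The ETS motif was in 25.3% of the subunit windows and in 10.3% of all 35116 windows. The NRF1 motif was in 18.7% against 5.78%, and AAGATGGCG, the core of the YY1 site, in 12.0% against 1.75%. The RUNX motif TGTGGT was in 14.7% of the subunit windows and 13.1% of all windows. TTTGAA, the core of the cell-cycle CHR element, was in 5.33% against 15.2%, and the printed COX8A stretch does not hold it. A motif match is a match of letters and not a binding site. Of the matched subunit genes, the ETS motif was in 5 of 32 in complex I, 3 of 7 in III, 5 of 13 in IV and 5 of 11 in V. The 18 measured subunit genes with an ETS motif had a median control level of 445 CPM, and the 41 without it 246 CPM. Their median log2 ratios between libraries were 0.00 and -0.05. The same medians with and without the other motifs were -0.07 (13 genes) and -0.04 (46) for NRF1, -0.03 (8) and -0.05 (51) for YY1, -0.04 (10) and -0.04 (49) for RUNX, and -0.07 (3) and -0.04 (56) for CHR. Their median control levels were 302 and 326 CPM for NRF1 and 141 and 348 CPM for YY1. They were 397 and 315 CPM for RUNX and 150 and 326 CPM for CHR.

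From the mitochondrial genome, the last 60 bases of a pair of complex I genes are printed, since 3′ libraries read this end of a transcript (GENCODE release 29, GRCh38). MT-ND3 is the mitochondrial gene that differed most between libraries and ends at chrM:10345-10404 on the plus strand. MT-ND6, the one protein gene on the other strand, differed most between phases and ends at chrM:14149-14208 on the minus strand. Capitals mark a run of at least 5 adenines.
MT-ND3: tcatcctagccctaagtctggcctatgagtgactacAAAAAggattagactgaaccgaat
MT-ND6: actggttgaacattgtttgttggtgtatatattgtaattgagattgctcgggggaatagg

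The MT-ND6 transcript was 35.6% guanine over its 525 bases, and the other 12 mitochondrial genes were between 6.28% (MT-ATP8) and 16.2% (MT-CO1).

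Oxidative phosphorylation subunits made up about the same share of the messenger RNA in both libraries. Nuclear subunit genes summed to 2.77% of UMIs with ETV6-RUNX1 and 2.81% in the control. Mitochondrial genes summed to 4.54% and 4.41%. The ratio of mitochondrial to nuclear UMIs, which does not depend on how libraries are scaled, was 1.64 with ETV6-RUNX1 and 1.57 in the control, a log2 ratio of 0.06 (0.06 to 0.07). The limit of 10% mitochondrial UMIs bounds this ratio from above in both libraries, and without it the log2 ratio was 0.05.

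By complex, the nuclear subunits of complex I summed to 7726 CPM with ETV6-RUNX1 and 7986 CPM in the control, a log2 ratio of -0.05 (-0.05 to -0.04). Complex V was at 8535 and 8796 CPM (-0.04, -0.05 to -0.04). Complex III was at 3397 and 3330 CPM (0.03, 0.02 to 0.04) and complex IV at 8060 and 8029 CPM (0.01, -0.00 to 0.01). The sums of complexes I and V were thus lower with the fusion, and those of III and IV were not. Other scalings move all log2 ratios up together by 0.04 or 0.05, which brings complexes I and V to about 0 and leaves their place below III and IV.

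The mitochondrial sums ran differently. Complex I was at 19094 and 19027 CPM (log2 ratio 0.01, 0.00 to 0.01), complex IV at 17777 and 17123 CPM (0.05, 0.05 to 0.06), complex III, which here is MT-CYB alone, at 3406 and 3191 CPM (0.09, 0.08 to 0.10) and complex V at 5154 and 4793 CPM (0.10, 0.10 to 0.11). Over all kept cells, the mitochondrial to nuclear ratio of each complex was higher with ETV6-RUNX1. It was 2.47 against 2.38 for complex I, 1.00 against 0.958 for III, 2.21 against 2.13 for IV and 0.604 against 0.545 for V. Complex V had the largest of these 4 differences, a log2 ratio of 0.15 (0.14 to 0.16), and it was 0.14 in G1, 0.17 in S and 0.13 in G2/M cells. The complex III ratio was 1.07 in both libraries in G1 cells, a log2 ratio of -0.00 (-0.05 to 0.04).

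**Figure D1:**
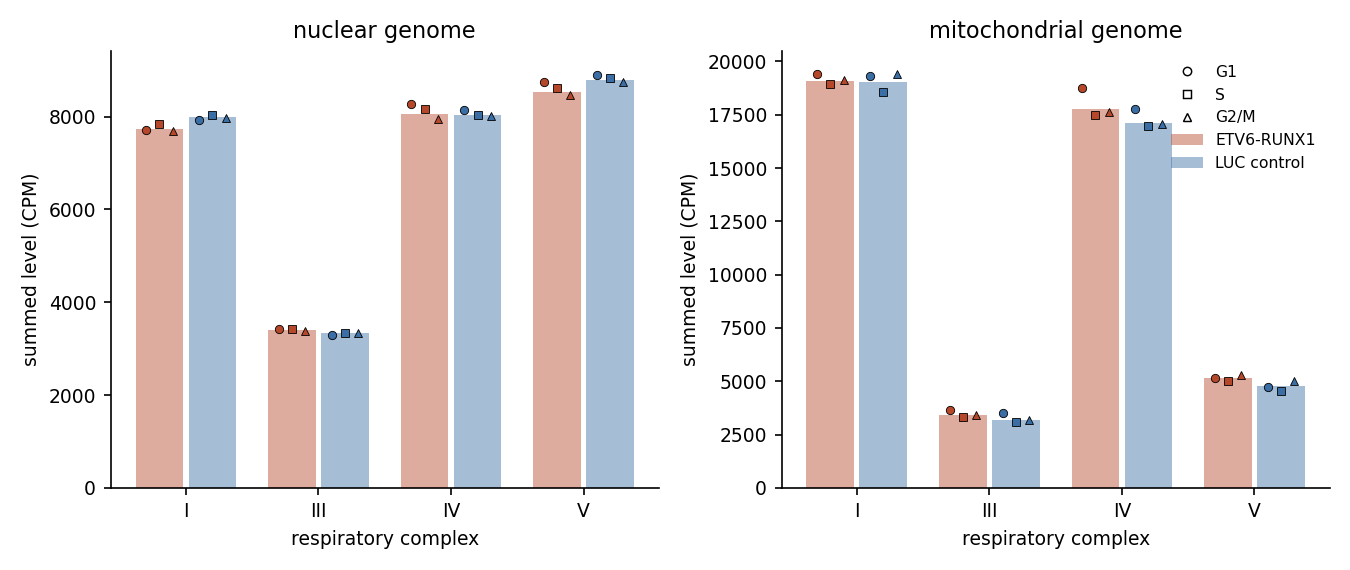
Summed CPM of subunit genes by respiratory complex and library, nuclear genome on the left and mitochondrial genome on the right. Bars are all kept cells and points the cells called G1, S and G2/M, with counting intervals that are mostly smaller than the points. Nuclear complex III sums to 3397 and 3330 CPM, below the other nuclear complexes, and mitochondrial complex V is higher with ETV6-RUNX1 in each phase.

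Single nuclear subunit genes differed little between libraries. At 1.5-fold or more, 0 of the 95 measured genes were higher and 0 lower, beside 0.185% and 0.655% of all 5954 measured genes. At 1.1-fold or more, 3 of the 95 were higher (8.94% of all measured genes) and 11 were lower (22.2% of all measured genes). The shares over all measured genes were not matched for level. They include genes near 10 CPM, where counting error is larger, while the 95 had median levels of 295 CPM with ETV6-RUNX1 and 315 CPM in the control. The median log2 ratio of the 71 nuclear subunit genes was -0.04 (-0.06 to -0.03 over the genes), beside a median of -0.04 over all measured genes, and 71.8% of them were below 0 against 63.8% of all. Where library totals excluded the genes of ribosomal proteins and of the mitochondrial genome, the subunit median turned to 0.00, on the positive side.

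The genes of complex I had the widest range, from -0.22 to 0.21. They are also more, 37 against 8, 11 and 15 in complexes III, IV and V, and lower in level. Their median control level was 210 CPM, against 389, 673 and 464 CPM. A range widens with more genes and with lower counts, and the part of this was not tested. All 6 nuclear subunit genes that were 1.1-fold or more lower with ETV6-RUNX1 belong to complex I, out of 37 measured (16.2%, beside 22.2% of all measured genes), against 0 of 8, 0 of 11 and 0 of 15 in complexes III, IV and V. With those other totals, 4 subunit genes in all were lower by this size, MT-ND3 included. NDUFC1, an accessory subunit of the membrane arm, was at 128 CPM with ETV6-RUNX1 and 150 CPM in the control (log2 ratio -0.22, -0.27 to -0.17). NDUFC2, also in the membrane arm, was at 184 and 214 CPM (-0.21, -0.26 to -0.17). The read-through model NDUFC2-KCTD14, not measured, overlaps it, so the NDUFC2 count is less certain. NDUFB6, a further membrane arm subunit, was at 146 and 169 CPM (-0.21, -0.26 to -0.16). These 3 genes were lower in each phase, with log2 ratios between -0.16 and -0.31.

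The others of the 6 were NDUFA9, an accessory subunit near the quinone site, at 79.0 and 89.4 CPM (log2 ratio -0.18), NDUFB1 at 218 and 246 CPM (-0.18, and -0.10 in G1 cells), and NDUFS1 at 24.1 and 27.0 CPM (-0.16, -0.28 to -0.04). NDUFS1 is the largest iron-sulphur subunit. It is 1 of the 7 nuclear core subunits, which carry the flavin, the iron-sulphur clusters and the quinone site. All 7 had a log2 ratio below 0 (63.8% of all measured genes), with a median of -0.10, and in S cells 6 of the 7. The highest was at -0.03, and the other scalings move every ratio up by 0.04 or 0.05. Of the 7, 5 had intervals below 0, a count not made over all measured genes. Among the 30 accessory subunit genes 21 were below 0, with a median of -0.06.

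A pair of complex I genes went the other way. NDUFA13, an accessory subunit also known as GRIM-19, was at 146 CPM with ETV6-RUNX1 and 128 CPM in the control (log2 ratio 0.19, 0.13 to 0.24). NDUFA7 was at 46.3 and 40.0 CPM (0.21, 0.12 to 0.31), and a second gene model of that symbol, with 1 UMI in all, overlaps it, so its count is less certain. The log2 ratio of NDUFA7 was 0.46 in G1, 0.23 in S and 0.14 in G2/M cells. NDUFS6, an accessory subunit and the complex I gene with the highest nuclear level, was at 462 and 476 CPM (-0.04).

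In complex III, UQCR11, a small accessory subunit, was the one gene past 1.1-fold, at 459 CPM with ETV6-RUNX1 and 415 CPM in the control (log2 ratio 0.14, 0.11 to 0.17). It too has a second gene model of its symbol, with 0 UMIs. UQCRH, the hinge protein and the highest of the complex, was at 973 and 931 CPM (0.06). UQCRFS1, the Rieske iron-sulphur protein and a catalytic subunit, was lowest in ratio at 216 and 236 CPM (-0.12, -0.17 to -0.08, and -0.20 in G1 cells), followed by UQCRC1 (-0.05, -0.11 to 0.01). The other 4 genes lay between -0.05 and 0.05.

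Complex IV had 11 measured genes, between -0.05 and 0.09. COX6A1 was at 507 and 475 CPM (log2 ratio 0.09, 0.07 to 0.12) and COX8A, a small membrane subunit, at 680 and 640 CPM (0.09, 0.06 to 0.11, and 0.05 in G1 cells). COX7C, at 1177 and 1219 CPM the highest of the complex, had the lowest ratio (-0.05, -0.07 to -0.03), next to COX5A (-0.05). In complex V, 13 of 15 genes were below 0 (63.8% of all measured genes). ATP5G1, which encodes subunit c of the membrane ring, was at 598 and 645 CPM (-0.11, -0.13 to -0.08), and ATP5C1, the rotating gamma subunit, at 281 and 302 CPM (-0.11, -0.14 to -0.07). With TMM scaling both were at -0.07, and in G1 cells they were at -0.05 and -0.06. ATP5E, the epsilon subunit, was highest in level at 1292 and 1343 CPM (-0.06), and ATP5L (0.04) and ATP5H (0.01) were above 0.

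**Figure D2:**
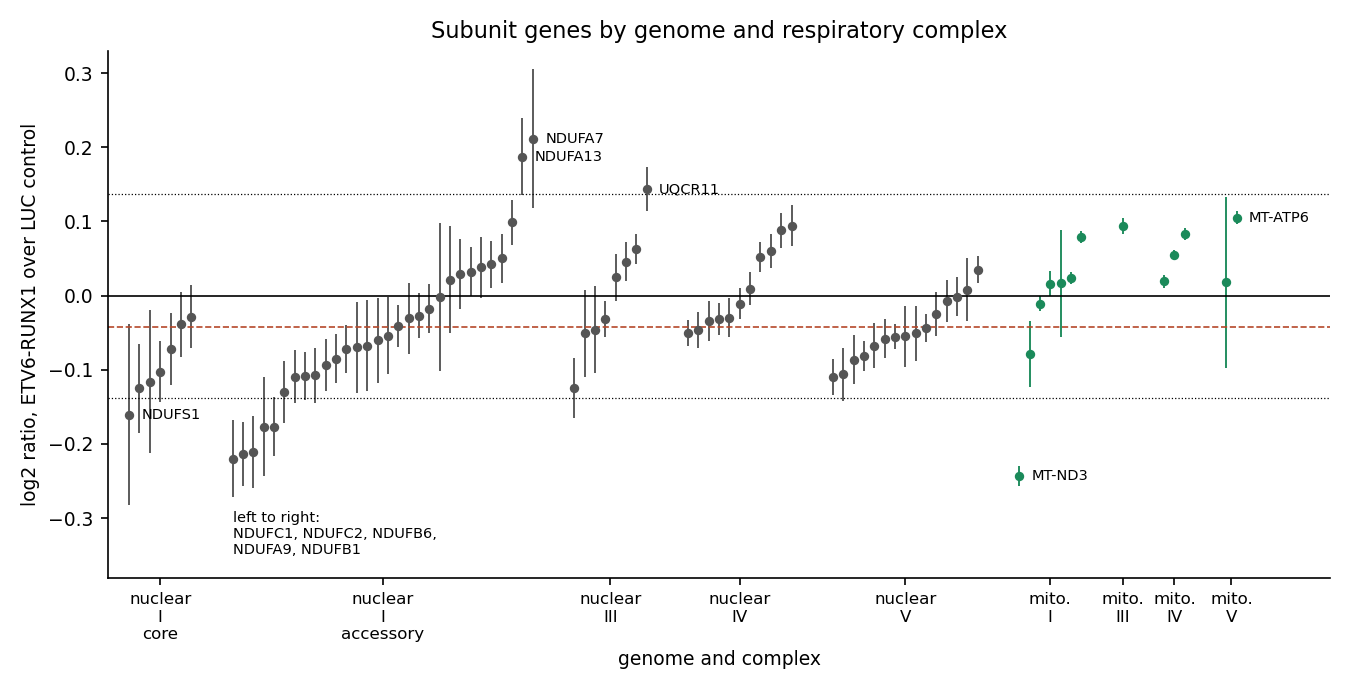
Log2 ratio of ETV6-RUNX1 over LUC control for each measured subunit gene, ordered within genome and complex, with its 95% counting interval. Dotted lines mark 1.1-fold and the dashed line the median of all measured genes (-0.04). The 6 nuclear genes below the lower line are all in complex I, and MT-ND3 at -0.24 stands apart from the other mitochondrial genes.

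Of the 13 mitochondrial genes, 10 were above 0, with a median log2 ratio of 0.02 (-0.01 to 0.08 over the genes). MT-ND3, a small membrane subunit of complex I next to the quinone site, was the exception in size. It was at 1899 CPM with ETV6-RUNX1 and 2249 CPM in the control, a log2 ratio of -0.24 (-0.26 to -0.23). The ratio was -0.22 in G1, -0.24 in S and -0.25 in G2/M cells. As a share of the mitochondrial UMIs, a measure free of library scaling, MT-ND3 was 4.18% (4.15 to 4.21) and 5.09% (5.06 to 5.13).

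MT-ATP6, a proton channel subunit of ATP synthase, was at 5125 and 4765 CPM (log2 ratio 0.11, 0.10 to 0.11). MT-CYB, the cytochrome b of complex III, had a log2 ratio of 0.09, and of 0.05 in G1 cells. MT-CO3 of complex IV was at 5421 and 5118 CPM (0.08, 0.07 to 0.09, and 0.14 in G1 cells), and MT-ND4 of complex I at 6674 and 6318 CPM (0.08, 0.07 to 0.09). MT-CO2, the copper subunit that takes electrons from cytochrome c, was the highest of the 13 at 7893 and 7602 CPM (0.05). MT-CO1, which holds the oxygen-binding site, was at 4462 and 4403 CPM (0.02).

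The remaining complex I genes were closer to 0. MT-ND2 was at 5241 and 5156 CPM (log2 ratio 0.02), MT-ND1 at 3722 and 3750 CPM (-0.01), and MT-ND5 at 1302 and 1288 CPM (0.02). MT-ND4L was at 183 and 193 CPM (-0.08, -0.12 to -0.03), the lowest after MT-ND3. MT-ND6 was at 72.3 and 71.5 CPM and MT-ATP8 at 28.6 and 28.2 CPM, both with a log2 ratio of 0.02. How strand was used in the counting is not given, so the MT-ND6 counts, here and by phase, may hold reads of the opposite strand. MT-ATP8 overlaps MT-ATP6, and MT-ND4L overlaps MT-ND4, so their reads can be shared.

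The log2 ratio of the share of mitochondrial UMIs was -0.29 for MT-ND3 over all cells, and -0.12 for MT-ND4L was next.

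**Figure D3:**
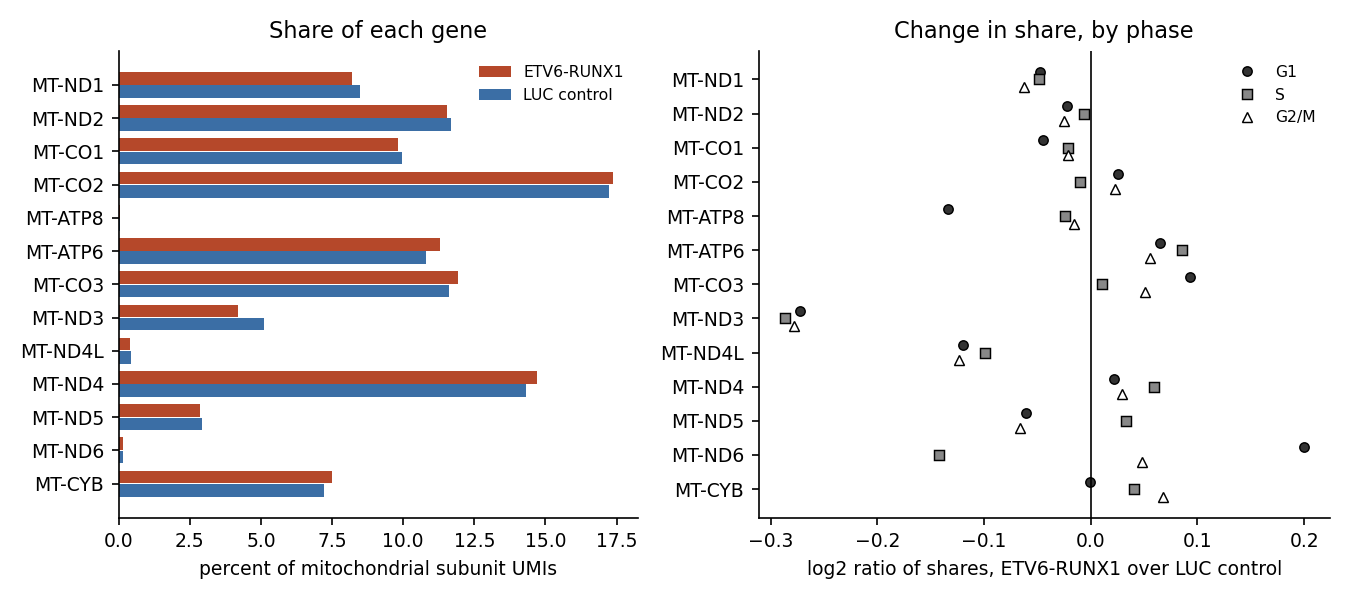
Left, each mitochondrial gene as a percent of the mitochondrial subunit UMIs of a library. Right, log2 ratio of that share between libraries in cells called G1, S and G2/M. MT-ND3 lies between -0.27 and -0.29 in the 3 phases, and the shares of the sparsely counted MT-ND6 and MT-ATP8 scatter.

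The MT-ND3 difference ran through the cells of the library. The median cell gave 4.09% of its mitochondrial UMIs to MT-ND3 with ETV6-RUNX1 (quartiles 3.42 and 4.78) and 5.04% in the control (4.27 and 5.77). Of the 2267 ETV6-RUNX1 cells, 1832 (80.8%) lay below the control median. From the lowest to the highest quartile of total UMIs, the share was 3.99, 4.16, 4.21 and 4.23% with ETV6-RUNX1 and 4.97, 5.05, 5.14 and 5.14% in the control. These quartiles divide the same UMIs that gave the difference over all cells, so they describe depth and add no support. Cells of 1 library are not replicates of a construct.

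Nuclear and mitochondrial shares varied largely apart from each other between cells. In cells thinned to 8700 UMIs each, the nuclear complex sums varied together, with Spearman correlations of 0.25 to 0.48 over 2043 ETV6-RUNX1 cells. The mitochondrial sums had correlations of 0.51 to 0.63, while the total nuclear and total mitochondrial sums had -0.08, and -0.04 over 1786 control cells. In the control the nuclear complex sums had 0.18 to 0.36 and the mitochondrial ones 0.44 to 0.62. In G1 cells the 2 totals had -0.10 with ETV6-RUNX1 and -0.21 in the control, and in S and G2/M cells between -0.09 and 0.01. Points share a library and a depth, and the correlations are descriptions. The variance of the thinned counts was 4.26 and 3.14 times their mean for the nuclear sum and 22.0 and 19.8 times for the mitochondrial sum, where counting error alone gives 1.

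Cell depth moved with these shares. In the quartile of cells with the fewest UMIs the mitochondrial to nuclear ratio was 1.77 with ETV6-RUNX1 and 1.66 in the control, and in the quartile with the most it was 1.59 and 1.53. Median UMIs per cell also differed between libraries, and the part of depth in the ratio of 1.64 against 1.57 was not tested beyond these values. In thinned cells its log2 ratio was 0.06.

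**Figure D4:**
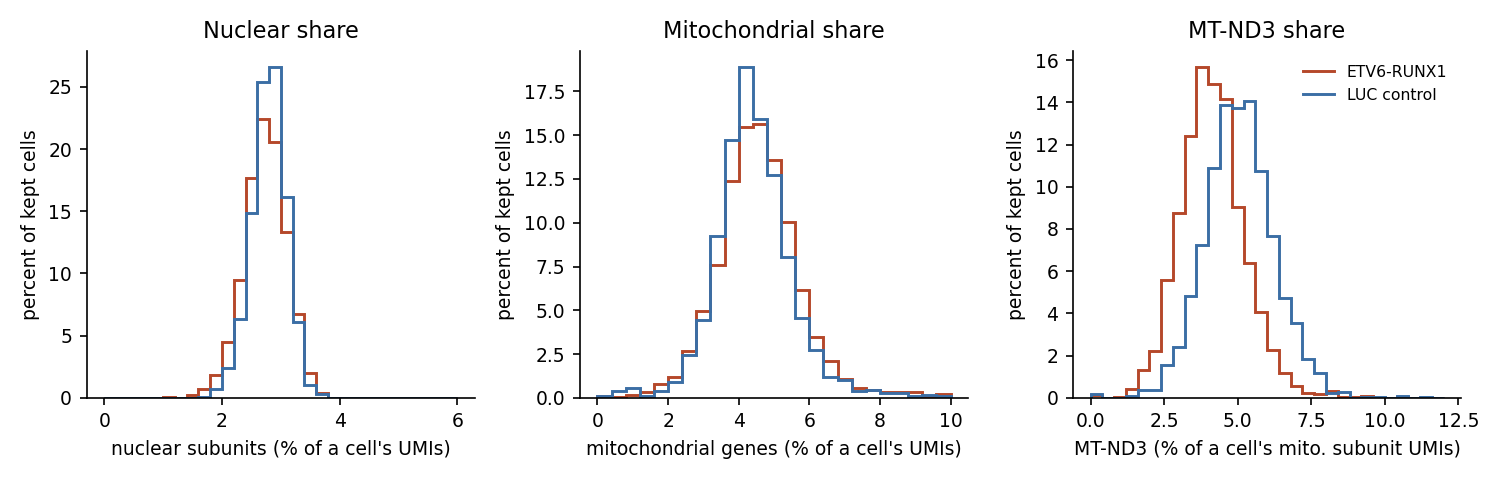
Distribution over kept cells of the nuclear subunit share and the mitochondrial share of a cell's UMIs, and of MT-ND3 as a share of a cell's mitochondrial subunit UMIs. The first pair of panels nearly overlap between libraries (medians 2.74 and 2.80%, then 4.51 and 4.36%), and the MT-ND3 distributions are shifted (4.09 and 5.04%).

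Cell-cycle phase, called from S and G2/M gene scores, split the thinned cells into 352 G1, 870 S and 821 G2/M with ETV6-RUNX1 and 254, 797 and 735 in the control. Of the ETV6-RUNX1 cells 17.3%, and of the control cells 17.2%, lay within 0.05 of a score boundary. Median UMIs per cell before thinning rose from 17016.5 in G1 to 22628 in G2/M cells, and from 18222 to 25985 in the control. Levels below are CPM within a phase.

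Oxidative phosphorylation genes varied little over the cycle. The median log2 ratio of G2/M over G1 was -0.03 and -0.02 over the nuclear subunit genes, with ETV6-RUNX1 and in the control, and 0.10 and 0.11 over all measured genes. The nuclear sum was 2.82, 2.80 and 2.75% of UMIs in G1, S and G2/M cells with ETV6-RUNX1 and 2.83, 2.82 and 2.81% in the control. The mitochondrial sum was highest in G1 in both libraries, at 4.69, 4.47 and 4.54% and at 4.53, 4.32 and 4.47%. Under a stricter cell filter (2000 genes, 6% mitochondrial UMIs) its log2 ratio of G2/M over G1 moved from -0.05 to -0.00 with ETV6-RUNX1. At 1.2-fold or more in both libraries, 3 subunit genes were higher in G2/M than in G1 (16.0% of all measured genes), namely COX8A, MT-ND6 and MT-ATP8, and 0 were lower (2.33% of all measured genes).

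COX8A was at 572.5 CPM in G1, 649 CPM in S and 747 CPM in G2/M cells with ETV6-RUNX1, and at 551, 594 and 704 CPM in the control. The order G1, S, G2/M was the same in both libraries. Its log2 ratio of G2/M over G1 was 0.38 (0.33 to 0.44) in the ETV6-RUNX1 library and 0.35 (0.29 to 0.41) in the control, and it was 0.45 and 0.49 in thinned counts. Of the other 10 measured complex IV genes, 9 with ETV6-RUNX1 and 10 in the control were below 0 in G2/M over G1.

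NDUFV1, the NADH-binding core subunit of complex I, was next among nuclear genes by the mean of both libraries, at 0.25 (0.11 to 0.39) and 0.22 (0.08 to 0.37), followed by UQCRC1 of complex III at 0.21 and 0.24. In thinned counts NDUFV1 was at 0.31 and 0.33, past 1.2-fold in both. The lowest by that mean were NDUFA5, an accessory subunit of complex I, at -0.26 (-0.38 to -0.13) and -0.31 (-0.44 to -0.17), UQCRB (-0.17 and -0.15) and UQCRC2 (-0.22 and -0.10), both of complex III. UQCRC1 and UQCRC2, which pair in complex III, thus lay on opposite sides of 0 in each library. Among the 7 nuclear core genes of complex I, 6 in each library were above 0.

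MT-ND6 was at 55.9 CPM in G1, 68.5 CPM in S and 78.9 CPM in G2/M cells with ETV6-RUNX1, and at 47.0, 73.0 and 75 CPM in the control. G1 cells were lowest in both libraries. The log2 ratio of G2/M over G1 was 0.50 (0.33 to 0.67) and 0.67 (0.47 to 0.88), and that of S over G1 0.29 and 0.64. MT-ND6 was the one subunit gene at 1.2-fold or more higher in S in both libraries (13.4% of all measured genes), and 0 were lower (2.7% of all measured genes). MT-ATP8 was at 0.37 (0.11 to 0.64) and 0.28 (-0.00 to 0.57) in G2/M over G1, but at 0.26 and 0.07 in thinned counts and at 0.34 and 0.24 under the stricter filter, short of 1.2-fold in the control. MT-ND1 was lowest of the 13, at -0.16 and -0.11.

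**Figure D5:**
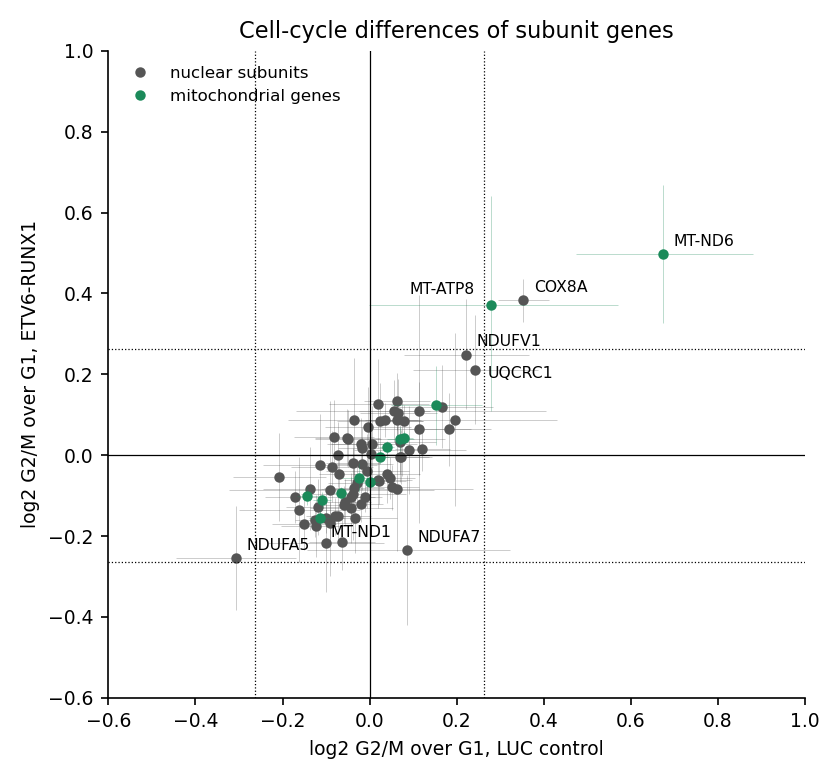
Log2 ratio of G2/M over G1 for each measured subunit gene, LUC control on the x axis and ETV6-RUNX1 on the y axis, with 95% counting intervals and dotted lines at 1.2-fold. COX8A, MT-ND6 and MT-ATP8 lie past 1.2-fold in both libraries, and most of the genes lie close to 0.

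Several subunits come as paralogues with tissue-restricted forms, and Nalm-6 cells used the widely expressed ones. COX4I2, COX6A2, COX7A1 and COX7B2, forms known from lung, muscle or testis, had 0 UMIs in both libraries, which allows up to 0.0683 CPM with ETV6-RUNX1 and 0.0702 CPM in the control (3 UMIs of the total). COX8C had 1 UMI with ETV6-RUNX1 and 0 in the control. COX6B2 had 8 UMIs against 1, beside 30846 and 28786 of COX6B1. NDUFA4L2, a paralogue of the complex IV subunit NDUFA4, gave 0.557% (0.482 to 0.640) and 0.491% (0.420 to 0.570) of the pair's UMIs. With COX6B2, COX8C and the 4 genes at 0, it makes up the 7 nuclear subunit genes that were not measured.

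Subunit c of ATP synthase is encoded by 3 genes whose mature proteins are the same. ATP5G1, ATP5G2 and ATP5G3 gave 24.1, 40.0 and 35.9% of their UMIs with ETV6-RUNX1 and 24.8, 39.2 and 36.1% in the control. The ATP5G2 share was higher in G2/M than in G1 cells, at 42.1 and 38.0% with ETV6-RUNX1 and 40.8 and 38.4% in the control. COX7A2 gave 79.9 and 79.3% of the UMIs of its family and the supercomplex factor COX7A2L the remaining 20.1 and 20.7%.

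The other nuclear genes of these prefixes include the 7 complex I assembly factors NDUFAF1 to NDUFAF7, of which 6 were measured. NDUFAF1 was at 10.9 and 13.5 CPM (log2 ratio -0.31, -0.49 to -0.13), NDUFAF4 at 72.9 and 81.6 CPM (-0.16, -0.23 to -0.09) and NDUFAF2 at 93.3 and 104 CPM (-0.16, -0.22 to -0.09). NDUFAF3 was higher, at 202 and 186 CPM (0.12, 0.07 to 0.16). In G1 cells NDUFAF1 was at 0.04 and NDUFAF4 at -0.08. The pseudogene COX6A1P2 (-0.29) shares near-identical sequence with COX6A1, which had a ratio of the opposite sign, and reads can be split between them. Not measured were NDUFAF7, NDUFB2-AS1, the read-through models NDUFC2-KCTD14 and ATP5J2-PTCD1, the retrogene ATP5L2 and the second models of NDUFA7, NDUFB8 and UQCR11.

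Of 6 related lists outside the prefixes, 5 had medians below the subunit median of -0.04. Intervals over the genes held that value for complex II and cytochrome c, assembly factors and the tricarboxylic acid cycle. They lay below it for mitochondrial ribosomal proteins (-0.12 to -0.06) and for mitochondrial transcription and RNA factors (-0.18 to -0.06). For the counts below, 8.94% of all measured genes were 1.1-fold or more higher and 22.2% lower. Complex II, cytochrome c and the complex III subunit CYC1 (cytochrome c1, -0.01) had a median log2 ratio of -0.10 over 6 measured genes. Of these, 0 were 1.1-fold or more higher and 2 lower. Those were CYCS, cytochrome c, at 505 and 565 CPM (-0.16, -0.19 to -0.14), and the complex II subunit SDHB (-0.14), and SDHD (-0.13) was next. The assembly factor list had a median of -0.07 over 39 genes, 0 higher and 4 lower, with COA7 (-0.37), FOXRED1 (-0.19) and TMEM70 (-0.14) furthest from 0. It also holds genes that are not assembly factors. These are the ATP synthase subunits USMG5 (-0.02) and C14orf2 (-0.04) and the ATP synthase inhibitor ATPIF1 (0.02). Mitochondrial ribosomal proteins had a median of -0.09 over 72 genes, 1 higher and 22 lower, with MRPL41 at 0.33 and MRPL15 (-0.30) and MRPS18C (-0.25) below.

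Factors of mitochondrial genome transcription and RNA handling had a median of -0.11 over 22 genes, 0 higher and 10 lower. MTERFD1 (-0.32), FASTKD3 (-0.24) and the transcription factor TFB2M (-0.23) were the furthest, and TFAM, which packages and starts transcription of the mitochondrial genome, was at 59.6 and 67.1 CPM (-0.17, -0.25 to -0.09). The tricarboxylic acid cycle and pyruvate dehydrogenase list had a median of -0.08 over 19 genes, 1 higher and 7 lower, led by IDH3A (-0.34), the pyruvate carrier MPC1 (-0.27) and PDHB (-0.22). The nuclear regulators had a median of -0.03 over 4 genes, 0 higher and 1 lower, GABPB1, a subunit of an ETS-family factor, at 14.6 and 17.4 CPM (-0.25, -0.41 to -0.10), with PPRC1 (-0.07) and CREB1 (0.03) closer to 0. The share of all measured genes 1.1-fold or more lower was 22.2%.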

How the data were processed

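Single-cell RNA of Nalm-6 cells was counted in 2 libraries, 1 per construct. The authors deposited raw UMI counts per gene and barcode, made with Cell Ranger 3.0.2 on hg19, per the submitters' processing notes. Multimapping and strand settings are not given in the sources used here. Members, lists and rules were chosen with earlier results of these data known.

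Cells with at least 1000 genes and at most 10% mitochondrial UMIs were kept, and doublets were not called and left in. UMIs were summed per library or phase and scaled to CPM. Ratios have exact 95% Poisson intervals, shares exact Clopper-Pearson ones, and medians order-statistic ones, all for counting error or genes and not for replicates. Named genes were all mitochondrial ones, the highest level and extreme ratios per complex, those at 1.1-fold or more with an interval off 0 (up to 10 per direction), the extremes over phases, and the top 3 per other list. NDUFAF2, NDUFAF3 and TFAM were named after their values were seen.

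Phases came from scanpy 1.11.5 scores (41 S and 54 G2/M genes) in cells thinned to 8700 UMIs, which left out 224 and 84 shallower cells. TMM factors came from edgeR 4.0.16, run under R 4.3.3. Alternatives were other scalings, phase-matched or G1 cells, equal cell weights, thinning, floors of 1 and 50 CPM, and other cell filters. Ratios and intervals were checked on simulated Poisson counts, which checks the calculation and does not cover spread between cells beyond counting error. No other columns of values were used.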

Additional observations from a re-analysis of the deposited data

How the results depend on the processing

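No paired analysis was possible because each construct has 1 library, and for the same reason no replicate could be left out. The median log2 ratio of nuclear subunit genes, -0.044 in the report, was -0.0042 with TMM scaling and 0.0020 where the totals excluded ribosomal protein and mitochondrial genes, scalings that shift every gene by 0.039 and 0.046. It was -0.063 with cells weighted equally, and the cause was not tested. The log2 ratio of the mitochondrial to nuclear ratio, 0.064 in the report, was 0.057 with phases matched, 0.056 in G1 cells, 0.074 with cells weighted equally, 0.056 in thinned cells, 0.052 with no limit on mitochondrial UMIs and 0.046 under the stricter cell filter (2000 genes, 6% mitochondrial UMIs), each above 0.

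Among measured subunit genes 3 were 1.1-fold or more higher and 7 lower, MT-ND3 included. The higher count was 5 with TMM scaling, 7 with the other totals and 6 in G1 cells, and the lower count was 4 with the other totals. For G2/M over G1, the nuclear sum with ETV6-RUNX1 (-0.035) was -0.023 in thinned cells and -0.019 with no limit, and in the control (-0.0093) it was 0.0086 in thinned cells. The mitochondrial sum with ETV6-RUNX1 (-0.047) was -0.041 with no limit and -0.00038 under the stricter filter, and in the control (-0.021) it was -0.030 in thinned cells and -0.039 with no limit. For S over G1, the nuclear sums (-0.0060 and -0.0018) were 0.0038 and 0.012 in thinned cells. The mitochondrial sum with ETV6-RUNX1 (-0.071) was -0.062 with no limit and -0.022 under the stricter filter, and in the control (-0.070) it was -0.079 in thinned cells, -0.098 with no limit and -0.041 under the stricter filter. The cause of these shifts was not tested.

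Of 222 values of single genes under these alternatives, 170 lay within the interval of the reported value, 51 moved outside it in the same direction or without a call, and 1 reversed, NDUFAF1 at 0.036 in G1 cells. With the other totals, moves of over 1.5 times were those of ATP5G1 and ATP5C1 (both -0.06), UQCRFS1 (-0.08), COX8A (0.13), MT-ND4 (0.12) and MT-CO3 (0.13). For G2/M over G1 they were those of UQCRB in the control in thinned cells (-0.07) and MT-ND1 with ETV6-RUNX1 under the stricter filter (-0.10), beside values within their interval. MT-ND3 stayed between -0.20 and -0.26 over its alternatives. The intervals hold counting error only, so a difference between cultures or library preparations cannot be told apart from the construct.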

Other observations

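A small set of cells had few mitochondrial transcripts. Kept cells with under 2% of UMIs from the 13 mitochondrial genes, a value chosen after seeing the distribution, numbered 33 of 2267 with ETV6-RUNX1 and 28 of 1870 in the control. Their nuclear subunit share, 2.79% and 2.82% of UMIs, was close to that of the other cells (2.77% and 2.81%). Their median depth was 9450 and 5776 UMIs, against 19219 and 22535.5 over all kept cells. Of these, 15 and 18 were too shallow for a phase call.

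Transcript GC content had a Spearman correlation of 0.27 with the log2 ratio between libraries over the 71 measured nuclear subunit genes, and of 0.03 over 5785 measured genes with a value. These are correlations across genes, which are not independent replicates, and both libraries enter every point.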
